A study of Mus musculus with 5 samples.

Results

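The genes described here encode the AP-1 and BATF transcription factors. They are the 9 rows of the deposited table with the gene names Jun, Junb, Jund, Fos, Fosb, Fosl2, Batf, Batf3 and Atf3, of 35275 rows in all. All 9 passed the filter on low reads, which left 13298 genes for testing. RNA came from sorted spleen cells of wild-type C57BL/6 mice aged 3 months, in 5 libraries. They are CD4 Treg (regulatory T cells of the CD4 lineage, 2 libraries), CD8 Treg (regulatory cells of the CD8 lineage, 1 library) and a population labelled CD49lo (2 libraries). The series sets the 2 Treg populations beside effector-like CD8+ cells, and CD49lo can be that population only by elimination, since the labels leave the name unexplained. All cells went through an enrichment for CD8 cells, staining and a sort; the sort markers are not given in the sources used here.

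AP-1 is a dimer of basic leucine zipper (bZIP) proteins, in which a zipper of leucines pairs the chains and a basic stretch binds DNA. JUN proteins can pair with themselves or with FOS proteins, whereas FOS proteins need a JUN partner. BATF proteins also pair with JUN, and in T cells such dimers bind DNA together with IRF4 or IRF8. In T cells, signals from the antigen receptor raise FOS and JUN through MAP kinases, and the dimers work with NFAT proteins. Several of these genes are immediate early genes, which are transcribed within minutes of a stimulus without new protein synthesis and also respond to cell handling.

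The 5 libraries held between 5441444 and 8354971 reads in genes, so that 1 read in a gene of 1 kilobase equals 0.120 to 0.184 RPKM (reads scaled to gene length and to library depth). The labelled lineages carried their transcripts. Foxp3, the master factor of CD4 Treg, was at 146 RPKM in each of the CD4 Treg libraries, at 0.387 in CD8 Treg and at 1.66 and 0.795 in CD49lo. Cd8a was at 0.412 and 0.352 RPKM in CD4 Treg, against 187 RPKM in CD8 Treg and 215 and 255 RPKM in CD49lo. Xist, made by the inactive X chromosome, was at 35.5 and 27.2 RPKM in CD4 Treg, against 0.0834 in CD8 Treg and 0.0269 and 0 in CD49lo, so the sex of the cells cannot be told apart from the CD4 Treg group. Of 8 B cell markers, 7 were lower in CD4 Treg than in CD49lo, against 12.8% of all genes tested. Ighm made up most of their sum in every library. Without it, they summed to 9.67 and 13.1 RPKM in CD4 Treg, 81.3 RPKM in CD8 Treg and 137 and 182 RPKM in CD49lo. The summed RPKM of the monocyte, macrophage and neutrophil markers were 12.3 to 18.8 in CD4 Treg, 249 in CD8 Treg and 454 to 511 in CD49lo, and those of the NK cell markers, Gzma left out, 3.60 to 4.49 in CD4 Treg, 154 in CD8 Treg and 89.9 to 184 in CD49lo. With Gzma, NK cell markers summed to 4.23 to 5.96 RPKM in CD4 Treg, 210 RPKM in CD8 Treg and 394 to 1764 RPKM in CD49lo. Of these 6 markers, 5 were lower in CD4 Treg than in CD49lo, and Khdc1a was higher (2.17 ± 0.49, limma adjusted p = 0.0113). No read of Khdc1a was found outside CD4 Treg. It thus passed the filter on low reads through that group alone, and its call could only be higher. Gzma left out, Eomes (82.4 RPKM) and Klre1 (46.0 RPKM) made up most of the CD8 Treg sum. Such bulk samples do not show whether the sorted cells or other cells made these transcripts. Fewer cells of a type and less RNA per cell cannot be told apart in them either. No label ties a replicate to an animal of its own, and p-values therefore measure only the spread between these libraries.

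The stretches of DNA just before the annotated starts are shown for the 5 genes whose levels were higher in CD4 Treg and whose stretch holds a match to the cyclic AMP response element or its half-site, the DNA word through which CREB, ATF and JUN proteins bind. They are 120 bases each, read from RefSeq's GRCm38.p6 promoter table, 5′ to 3′ on the gene's own strand, and capitals mark matches to TGACG or TGACNTCA (both strands searched; the full palindromic element would match both).
Jun (chr4:95052223-95052342, minus strand): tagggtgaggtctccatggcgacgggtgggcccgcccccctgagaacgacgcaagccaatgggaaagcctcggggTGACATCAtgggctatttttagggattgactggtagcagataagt
Junb (chr8:84978749-84978868, minus strand): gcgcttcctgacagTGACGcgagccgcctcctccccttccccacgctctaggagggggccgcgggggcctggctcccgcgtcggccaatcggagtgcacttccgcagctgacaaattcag
Fos (chr12:85473770-85473889, plus strand): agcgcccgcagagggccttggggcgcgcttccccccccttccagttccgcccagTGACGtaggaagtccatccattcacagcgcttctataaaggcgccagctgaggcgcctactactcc
Fosb (chr7:19310046-19310165, minus strand): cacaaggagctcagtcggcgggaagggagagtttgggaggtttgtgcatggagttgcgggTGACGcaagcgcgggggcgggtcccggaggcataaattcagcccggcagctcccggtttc
Batf (chr12:85686549-85686668, plus strand): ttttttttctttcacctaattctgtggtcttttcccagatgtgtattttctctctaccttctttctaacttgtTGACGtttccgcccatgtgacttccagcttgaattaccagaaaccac

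The Jun stretch held TGACATCA from 45 to 38 bases before the start. The half-site TGACG began 66 bases before the start in Fos, 60 in Fosb, 106 in Junb and 98 in Batf, where RefSeq's start lies 51 bases after that of the deposited table and the printed stretch ends before both. In the 250 bases before the RefSeq start, TGACG occurred in 5 of the 9 genes (Fos, Fosb, Junb, Batf and Atf3), against 17.8% of all 32851 promoters in the table. TGACNTCA occurred in 1 of 9, against 7.49%, and TGANTCA, the AP-1 site itself, in 0 of 9, against 6.75%. The CArG box, which binds serum response factor, occurred in 0 of 9 within these bases, against 1.47%. TATAAA stood 33 bases before the start in Fos alone of the 9, against 12.4%, and CCAAT stood in Jun and Junb, against 33.8%. GGGCGG, the core of the GC box, stood in 7 of 9, against 32.7%, and the median GC content was 64.4% for the 9 promoters, against 52.4% for all in the table. A match describes these letters and is not a bound site.

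CD4 Treg were first set against CD49lo. CD4 Treg held more of all 3 JUN transcripts, of Fos and Fosb, and of Batf, and less of Fosl2 and Batf3. Of the 9 genes, 8 passed the test (limma with Benjamini-Hochberg adjustment over all genes tested, adjusted p under 0.05), 6 higher and 2 lower. Batf3, 1 of these 2, passed the filter on low reads through CD49lo alone. Over all genes tested, 22.2% passed, 9.41% as higher and 12.8% as lower. The RPKM of the groups did not overlap for 8 of the 9 genes, 6 higher and 2 lower, against 60.2% of all genes tested, 26.5% higher and 33.7% lower. The median log2 fold change of the 9 genes was 1.16, and that of all genes tested was -0.03.

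**Figure D1:**
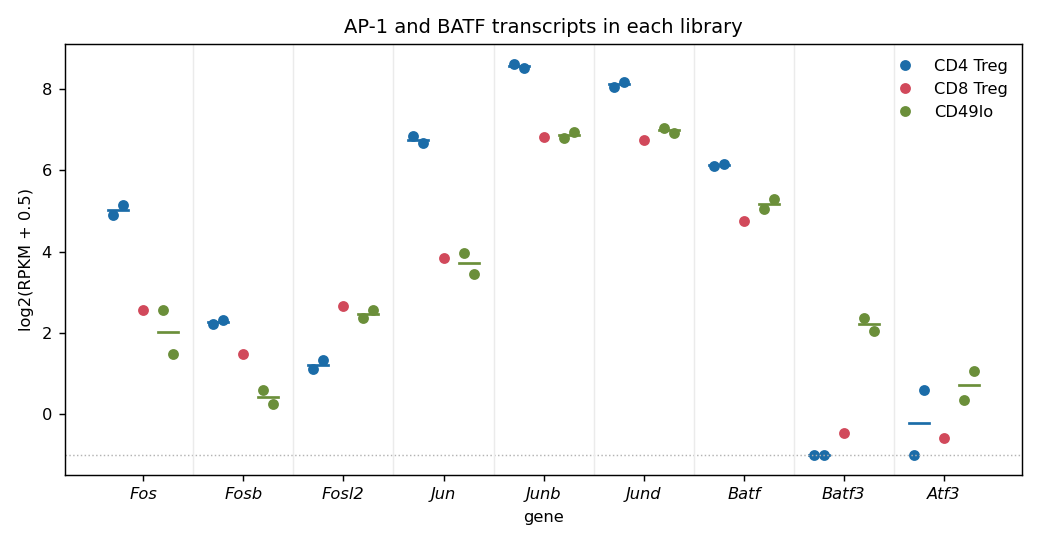
Level of each gene in each library, as log2(RPKM + 0.5) on the vertical axis; points are libraries, short bars are group means, and the dotted line marks 0 RPKM. The CD4 Treg points sit above the others for Jun, Junb, Jund, Fos, Fosb and Batf and below them for Fosl2 and Batf3.

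Among the JUN genes, Jun (ENSMUSG00000052684, mm10 chromosome 4, 95049034 to 95052222, minus strand) encodes the classical AP-1 activator. It had 114 and 101 RPKM in CD4 Treg, against 15.2 and 10.5 RPKM in CD49lo. The lowest CD4 Treg library was thus far above the highest CD49lo library, and the log2 fold change was 3.06 ± 0.18 (SE; limma adjusted p = 5.59e-06). In the deposited table the length of Jun equals its span of 3189 bases, as it does for Junb and Jund, which therefore hold no intron there. Junb (ENSMUSG00000052837, chromosome 8, 84976909 to 84978748, minus strand) encodes the JUN protein that pairs with BATF in T helper cells. It had 392 and 365 RPKM in CD4 Treg, against 110 and 122 RPKM in CD49lo, and the log2 fold change was 1.73 ± 0.10 (limma adjusted p = 5.88e-06). Jund (ENSMUSG00000071076, chromosome 8, 70697739 to 70700616, plus strand), the JUN member made steadily in many resting cells, had 263 and 286 RPKM in CD4 Treg, against 131 and 119 RPKM in CD49lo. Its log2 fold change was 1.16 ± 0.10 (limma adjusted p = 5.94e-05), and the groups did not overlap for any JUN gene.

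On the opposite strand, the antisense transcript Junos overlaps Jun by 689 bases. It had 3.92 and 3.40 RPKM in CD4 Treg, against 0.970 and 0 RPKM in CD49lo. Gm11175 lies opposite 919 bases of Jund in the deposited table, and stood at 4.16 to 5.75 RPKM in CD4 Treg and at 4.41 to 6.45 RPKM in CD49lo. Whether reads were counted by strand is not given in the sources used here, so reads of these pairs cannot be told apart.

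Among the FOS genes, Fos (ENSMUSG00000021250, chromosome 12, 85473890 to 85477273, plus strand) encodes the immediate early partner of JUN. It had 29.4 and 34.9 RPKM in CD4 Treg, against 5.39 and 2.31 RPKM in CD49lo. The CD49lo replicates differed by a factor of 2.33, and both lay below the CD4 Treg libraries, and the log2 fold change was 3.02 ± 0.34 (limma adjusted p = 0.000208). Fosb (ENSMUSG00000003545, chromosome 7, 19302721 to 19310045, minus strand), another immediate early FOS gene, had 4.17 and 4.46 RPKM in CD4 Treg, against 1.02 and 0.690 RPKM in CD49lo. These values rest on 97 and 91 reads in CD4 Treg and on 32 and 17 reads in CD49lo, and the log2 fold change was 1.85 ± 0.32 (limma adjusted p = 0.00270). Fosl2 (ENSMUSG00000029135, chromosome 5, 32136472 to 32157831, plus strand), which encodes the FOS member Fra-2, went the other way. It had 1.65 and 2.01 RPKM in CD4 Treg, against 4.68 and 5.46 RPKM in CD49lo, with a log2 fold change of -1.23 ± 0.22 (limma adjusted p = 0.00322). The ratio of Fos to Fosl2 RPKM was therefore 17.8 and 17.4 in CD4 Treg, against 1.15 and 0.423 in CD49lo.

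Among the BATF genes, Batf (ENSMUSG00000034266, chromosome 12, 85686669 to 85709087, plus strand) encodes a factor needed for effector Treg in tissues and for effector CD8 cells. It had 67.5 and 70.8 RPKM in CD4 Treg, against 32.7 and 38.8 RPKM in CD49lo. The replicates lay close together, and the log2 fold change was 0.97 ± 0.16 (limma adjusted p = 0.00242). Batf3 (ENSMUSG00000026630, chromosome 1, 191098414 to 191108943, plus strand) is best known from the dendritic cells that cross-present antigen, and activated T cells also make it. It had 0 reads in both CD4 Treg libraries, against 28 and 17 reads (4.71 and 3.64 RPKM) in CD49lo. Its share of reads was at least 11.7-fold lower in CD4 Treg (floor of 3 reads over the group), and limma called it lower (adjusted p = 0.000960). Batf3 passed the filter on low reads through CD49lo alone, so its call could only be lower and adds nothing to the reads themselves. Atf3 (ENSMUSG00000026628, chromosome 1, 191170296 to 191183340, minus strand), a stress-induced repressor of the family, had 0 and 11 reads in CD4 Treg, against 13 and 21 reads in CD49lo. These are 0 and 1.02 RPKM against 0.784 and 1.61 RPKM, the groups overlapped, and the log2 fold change of -0.90 ± 0.60 did not pass (limma adjusted p = 0.334).

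Most listed transcripts of dendritic cells moved with Batf3. Of 9 dendritic cell markers, 6 were lower and 0 higher in CD4 Treg than in CD49lo, against 12.8% and 9.41% of all genes tested. Among the 6, Cd209a and Clec9a passed the filter on low reads through CD49lo alone, so their calls could only be lower. Zbtb46, Tlr3 and Xcr1 did not pass (limma adjusted p = 0.528, 0.794 and 0.0861). The 9 markers summed to 6.24 and 3.40 RPKM in CD4 Treg, against 437 and 446 RPKM in CD49lo. Most of the CD49lo sums came from H2-Ab1, at 389 and 398 RPKM, against 4.93 and 2.58 RPKM in CD4 Treg. Of the 9 markers, 3 and 4 were at 0 in the CD4 Treg libraries, against 0 in each CD49lo library. The defining markers of cross-presenting dendritic cells were low in every library: Clec9a had 0.0490 and 0.223 RPKM in CD4 Treg, against 1.09 and 1.62 RPKM in CD49lo. Xcr1 was listed at 0 in both CD4 Treg libraries, against 0.753 and 0.616 RPKM in CD49lo. The part of these cells in the Batf3 values was not tested.

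Leaving out a CD4 Treg or CD49lo library leaves 1 residual degree of freedom instead of 2. Of the 9 genes, 4 passed when CD4 Treg replicate 1 was left out and 4 when replicate 2 of that group was, against 4.80% and 5.17% of all genes tested. When CD49lo replicate 1 was left out 0 passed, and 8 had an unadjusted p under 0.05 by limma, against 27.6% of all genes. In the full fit 8 had one too, against 33.7%. With CD49lo replicate 2 left out 1 passed, against 1.12%. Without the filter on low reads the calls of Fos, Fosb, Fosl2 and Batf were lost (limma adjusted p from 0.0588 to 0.0872). No sign turned among the 9 genes, and the log2 fold change of Jun stayed between 2.79 and 3.34, that of Fos between 2.48 and 3.57 and that of Batf between 0.88 and 1.08.

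**Figure D2:**
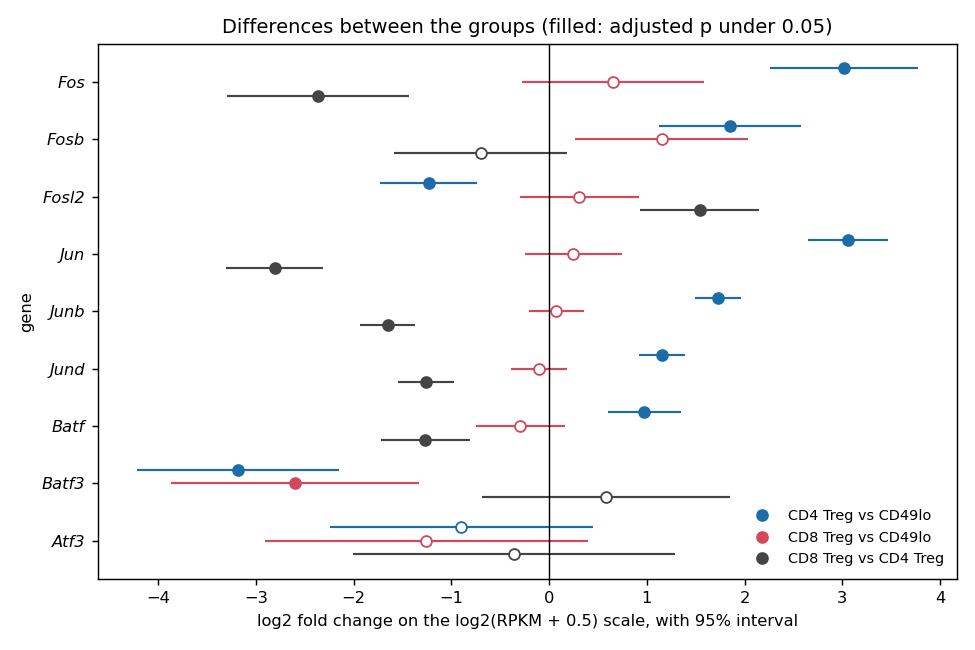
Log2 fold changes on the log2(RPKM + 0.5) scale with 95% intervals from limma, for the 3 comparisons; filled points passed an adjusted p under 0.05. The CD4 Treg over CD49lo points run from -3.18 (Batf3) to 3.06 (Jun), while 8 of the 9 CD8 Treg over CD49lo points are open.

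CD8 Treg were next set against CD49lo. CD8 Treg held levels of the JUN genes and Batf near those of CD49lo, and less Batf3. Of the 9 genes, 1 passed the test, as lower, against 5.37% of all genes tested, 1.71% as higher and 3.65% as lower. That gene, Batf3, passed the filter on low reads through CD49lo alone, so its call could only be lower. At an unadjusted p under 0.05, 2 of the 9 passed, against 19.2% of all genes tested. The CD8 Treg value lay outside the CD49lo range for 6 of the 9 genes, 2 higher and 4 lower, against 75.7% of all genes tested, 24.5% higher and 51.2% lower. The median log2 fold change of the 9 genes was 0.07, and that of all genes tested was -0.04. Every CD8 Treg value rests on n = 1, and its spread is borrowed from the groups with replicates.

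Junb had 111 RPKM in CD8 Treg, between the CD49lo libraries. Jun, at 13.8 RPKM, and Fos, at 5.39 RPKM, also lay within the range of the CD49lo libraries. Jund (106 RPKM) and Batf (26.4 RPKM) lay below both CD49lo libraries, and Fosl2 (5.82 RPKM) above both. For these genes the 95% intervals of the log2 fold change ran from -0.21 to 0.36 for Junb, from -0.39 to 0.18 for Jund, from -0.25 to 0.75 for Jun, from -0.75 to 0.16 for Batf, from -0.30 to 0.92 for Fosl2 and from -0.28 to 1.58 for Fos. Among these 6 genes the interval of Fos is the widest, and the test does not show that the populations are alike. The direction of Junb turned without a scaling factor (-0.06) and that of Jun without CD49lo replicate 2 (-0.03).

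Fosb had 2.28 RPKM in CD8 Treg (52 reads), above both CD49lo libraries. Its log2 fold change was 1.15 ± 0.39, with an unadjusted p of 0.0163, and it did not pass (limma adjusted p = 0.143). Batf3 had 1 read in CD8 Treg, against 45 reads in CD49lo together, and it passed the filter on low reads through CD49lo alone. The ratio of its shares of reads was 0.0546 (95% exact interval 0.00135 to 0.320, counting error only), and limma called Batf3 lower (log2 fold change -2.60 ± 0.56, adjusted p = 0.0303). That call was lost with a constant of 0.1 in place of 0.5 (adjusted p = 0.108), by limma-voom on recovered reads (0.404), with no filter (0.0640), with a filter at 1 RPKM (0.114) and with a single prior (0.0684). It was also lost without any 1 of the replicated libraries (0.203 and 0.189 without CD4 Treg replicates 1 and 2, and 0.159 and 0.133 without CD49lo replicates 1 and 2), where the count of the 9 genes called was 0 each time and 1 to 3 passed at an unadjusted p under 0.05 by limma, against 14.2% to 17.4% of all genes tested. The dendritic cell markers summed to 166 RPKM in CD8 Treg, below both CD49lo libraries, and H2-Ab1 made up 157 RPKM of that sum. Atf3 had 2 reads in CD8 Treg, and the ratio of its share of reads to that in CD49lo was 0.145 (95% exact interval 0.0168 to 0.564), while limma did not call it (adjusted p = 0.400).

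The 2 Treg populations were then set against each other, in a comparison that shares its libraries with those above. CD8 Treg held less of the 3 JUN transcripts, Fos and Batf, and more Fosl2. Of the 9 genes, 6 passed, 5 lower and 1 higher, against 16.9% of all genes tested, 8.35% as lower and 8.51% as higher. The CD8 Treg value lay outside the CD4 Treg range for 8 of the 9 genes, 2 higher and 6 lower, against 81.6% of all genes tested, 35.9% higher and 45.7% lower. The median log2 fold change of the 9 genes was -1.26, and that of all genes tested was 0.02.

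Jun had 13.8 RPKM in CD8 Treg, against 114 and 101 RPKM in CD4 Treg, a log2 fold change of -2.81 ± 0.22 (limma adjusted p = 5.00e-05). Fos had 5.39 RPKM in CD8 Treg, against 29.4 and 34.9 RPKM in CD4 Treg (-2.37 ± 0.41, limma adjusted p = 0.00406). Junb differed by -1.65 ± 0.13 (limma adjusted p = 4.28e-05), Batf by -1.27 ± 0.20 (0.00256) and Jund by -1.26 ± 0.13 (0.000202). Fosl2 was the 1 gene that was higher in CD8 Treg, at 5.82 RPKM against 1.65 and 2.01 RPKM in CD4 Treg (1.54 ± 0.27, limma adjusted p = 0.00414). Fosb stood in between, at 2.28 RPKM in CD8 Treg and 4.17 and 4.46 RPKM in CD4 Treg, and did not pass (-0.70 ± 0.39, adjusted p = 0.275). Batf3, with 1 read in CD8 Treg and 0 in CD4 Treg, and Atf3, with 2 reads in CD8 Treg and 11 in CD4 Treg, did not pass either (adjusted p = 0.546 and 0.794). Of the 9 genes, 1 passed when CD4 Treg replicate 1 was left out and 2 when replicate 2 of that group was, against 1.65% and 1.81% of all genes tested. With either CD49lo replicate left out 0 passed, and 7 had an unadjusted p under 0.05 by limma, against 27.7% of all genes. In the full fit 6 had one, against 29.7%. The fall of Jun stayed between -2.91 and -2.72 and that of Fos between -2.48 and -2.26 in those fits. The call of Fos was also lost with a filter at 1 RPKM, with no filter and with a single prior, and with no filter those of Jun (limma adjusted p = 0.0503) and Fosl2 (0.0510) were lost too.

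The sum over the 9 genes was 872 and 865 RPKM in CD4 Treg, 271 RPKM in CD8 Treg and 306 and 304 RPKM in CD49lo. JUN genes made up most of it everywhere, at 88.2% and 86.9% in CD4 Treg, 85.1% in CD8 Treg and 83.9% and 82.7% in CD49lo. RPKM corrects for gene length as given in the deposited table, so levels can be set side by side. In CD4 Treg the order was Junb, Jund, Jun, Batf, Fos, Fosb and Fosl2 in both replicates, and no neighbours in it overlapped between replicates. In CD8 Treg Junb and Jund came first and Batf stood above Jun. The same order of Batf above Jun held in both CD49lo libraries, where Jund was above Junb in replicate 1 and below it in replicate 2, so these 2 did not differ beyond their spread. Fos, Batf3 and Fosl2 also changed places between the CD49lo replicates. Junb RPKM stood at 3.44 and 3.62 times those of Jun in CD4 Treg, at 8.07 times in CD8 Treg and at 7.23 and 11.6 times in CD49lo. In RPKM, the JUN genes together stood at 11.4 and 10.6 times Batf in CD4 Treg, at 8.75 times in CD8 Treg and at 7.84 and 6.50 times in CD49lo. Junb was above 98.9% of all genes tested in each CD4 Treg library, 96.7% in CD8 Treg and 95.9% and 96.3% in CD49lo.

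**Figure D3:**
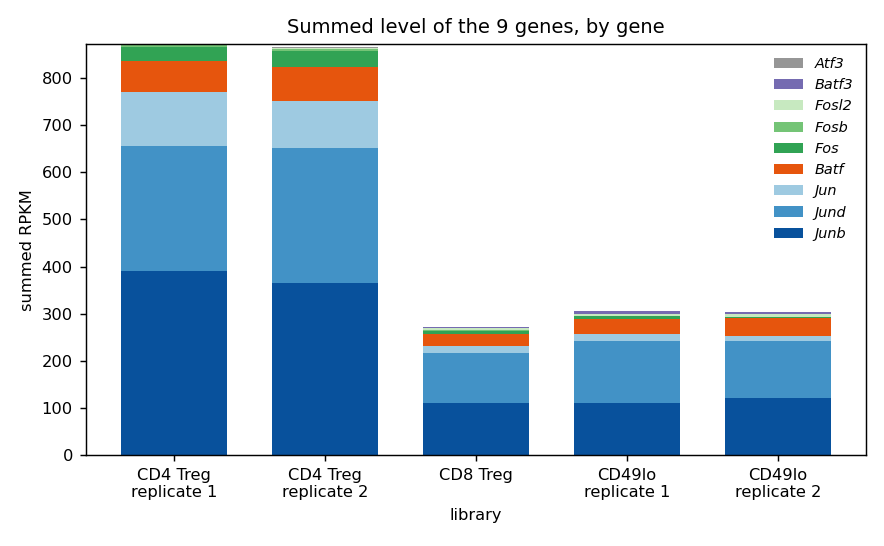
Summed RPKM of the 9 genes in each library (bars start at 0), divided by gene. The CD4 Treg bars reach 872 and 865 RPKM, the CD8 Treg bar 271 and the CD49lo bars 306 and 304, and Junb and Jund take up most of each bar.

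The wider bZIP family moved in both directions. Of 31 other bZIP genes, 29 were tested. In CD4 Treg 6 were higher and 4 lower than in CD49lo, against 9.41% and 12.8% of all genes tested. Their median log2 fold change was 0.10. Maf, which drives IL-10 and follicular programmes in T cells, had 42.9 and 40.9 RPKM in CD4 Treg, against 4.69 and 3.98 RPKM in CD49lo (3.16 ± 0.15, limma adjusted p = 1.86e-06). Named here after their values were seen, Crem, an inducible cyclic AMP responsive repressor (1.68 ± 0.30, limma adjusted p = 0.00350), Maff (1.69 ± 0.46, 0.0263), Dbp (1.37 ± 0.27, 0.00587), Nfil3 (1.21 ± 0.26, 0.00809) and Bach2 (0.53 ± 0.12, 0.0118) were the other 5 that were higher. Among those that were lower were Nfe2 (-2.56 ± 0.43, limma adjusted p = 0.00234) and Cebpd (-2.92 ± 0.50, 0.00265), known from megakaryocyte or myeloid cells, and the endoplasmic reticulum stress sensor Atf6 (-1.22 ± 0.17, 0.000847). Of 8 monocyte, macrophage and neutrophil markers in the table, 7 were lower in CD4 Treg too, against 12.8% of all genes tested. The other marker, the bZIP gene Cebpa, lay the other way and did not pass (1.14 ± 0.39, limma adjusted p = 0.0682). It had 4.90 and 9.77 RPKM in CD4 Treg, against 3.68 and 2.31 RPKM in CD49lo. The part of such cells in the Nfe2 and Cebpd values was not tested. In CD8 Treg against CD49lo, 0 of the 29 were higher and 2 lower, against 1.71% and 3.65% of all genes tested. The 2 were Maf (-1.30 ± 0.19, limma adjusted p = 0.00552) and Cebpb (-1.39 ± 0.19, 0.00420). In CD8 Treg against CD4 Treg, 1 was higher and 5 lower, against 8.51% and 8.35% of all genes tested. Maf was at -4.46 ± 0.19. Fosl1, Fra-1, and Batf2 fell below the filter, at no more than 0.482 RPKM in any library.

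The next lists hold genes that act on or with AP-1. Of 26 genes of the MAP kinase path, all tested, 2 were higher in CD4 Treg than in CD49lo and 0 lower. These counts are not above the shares over all genes tested, 9.41% higher and 12.8% lower. The 2 were Map3k5, the stress kinase ASK1 (1.18 ± 0.19, limma adjusted p = 0.00182), and Mapk9, the JNK2 kinase (0.61 ± 0.16, 0.0197). Both were lower in CD8 Treg than in CD4 Treg (-1.57 ± 0.23, limma adjusted p = 0.00177, and -1.02 ± 0.19, 0.00578). Of 6 turnover genes in the table, 0 passed in any comparison. At an unadjusted limma p under 0.05, 2 passed in CD4 Treg against CD49lo, where 33.7% of all genes tested did. In CD8 Treg, 1 passed against CD49lo and 1 against CD4 Treg, where 19.2% and 29.7% of all genes did. Of 8 partner factors, 1 was higher and 3 were lower in CD4 Treg than in CD49lo, against 9.41% and 12.8% of all genes tested. Irf8 had 6.18 and 7.73 RPKM in CD4 Treg, against 38.4 and 40.9 RPKM in CD49lo (-2.41 ± 0.16, limma adjusted p = 1.02e-05). It also marks B cells and myeloid cells, most of whose markers were lower too, and their part in the Irf8 values was not tested. Irf4, the other IRF partner of BATF, had 13.8 and 13.7 RPKM in CD4 Treg, against 10.7 and 12.4 RPKM in CD49lo, and did not pass (0.27 ± 0.15, limma adjusted p = 0.250). At 5.45 RPKM in CD8 Treg, Irf4 was lower than in CD49lo (-0.89 ± 0.19, limma adjusted p = 0.0268) and lower than in CD4 Treg (-1.16 ± 0.19, 0.00267). Of 10 cytokine genes whose promoters carry AP-1 sites, 3 passed the filter. Il10 (2.52 ± 0.46, limma adjusted p = 0.00347) and Tnf (0.69 ± 0.20, 0.0354) were higher and Ifng (-3.29 ± 0.45, 0.000695) lower in CD4 Treg than in CD49lo. Il10 passed the filter on low reads through CD4 Treg alone, so its call could only be higher.

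A further list holds other immediate early genes and genes that respond to cell dissociation. Like the JUN genes, Fos, Fosb and Batf, most of them were higher in CD4 Treg than in CD49lo. Of 26, all tested, 18 were higher and 3 lower in CD4 Treg than in CD49lo, against 9.41% and 12.8% of all genes tested. Their median log2 fold change was 0.89. Dusp1, a MAP kinase phosphatase, had 73.0 and 66.8 RPKM in CD4 Treg, against 7.61 and 6.26 RPKM in CD49lo (3.27 ± 0.18, limma adjusted p = 3.66e-06). Socs3 (2.13 ± 0.13), Ppp1r15a (1.94 ± 0.13) and Nfkbia (1.69 ± 0.11), feedback genes of cytokine, stress and NF-kappaB signalling, were higher with a limma adjusted p of at most 1.36e-05. Ier3 was the most clearly lower (-2.19 ± 0.43, limma adjusted p = 0.00567). Of 10 heat shock genes, 8 were higher and 0 lower, among them Dnaja1 (1.48 ± 0.10, limma adjusted p = 1.08e-05). In CD8 Treg against CD49lo, 3 of the 26 immediate early and dissociation genes were higher and 2 lower, against 1.71% and 3.65% of all genes tested. Of the 10 heat shock genes 0 passed, and 2 had an unadjusted p under 0.05 by limma, against 19.2% of all genes. In CD8 Treg against CD4 Treg, 2 of the 26 were higher and 17 lower, against 8.51% and 8.35% of all genes tested. Of the 10 heat shock genes, 7 were lower. Such genes respond to signals and to handling of cells, and the part of either in the AP-1 values was not tested.

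**Figure D4:**
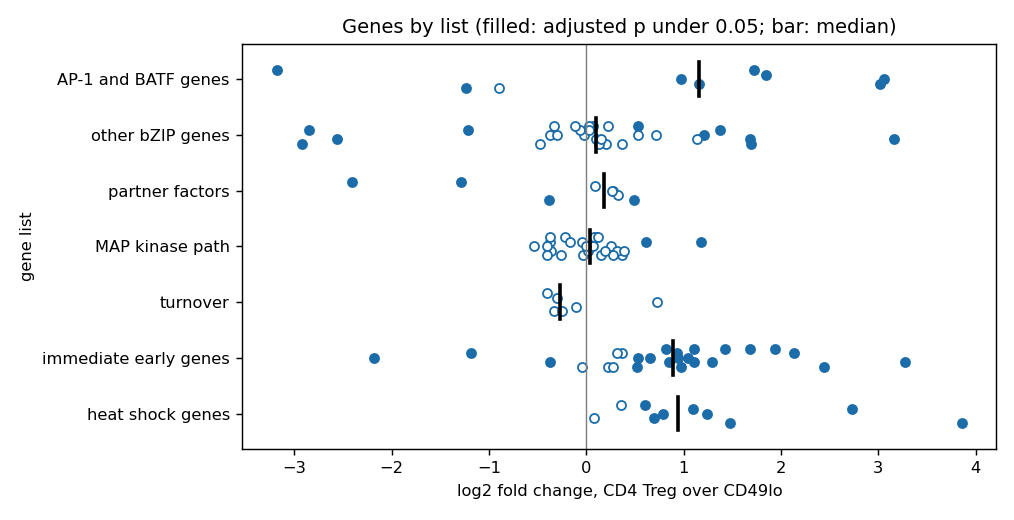
Log2 fold change of CD4 Treg over CD49lo for each tested gene of 7 lists; filled points passed an adjusted p under 0.05 and black bars are medians. The medians of the AP-1 and BATF, immediate early and heat shock lists are 1.16, 0.89 and 0.94, and those of the other 4 lists lie between -0.27 and 0.18.

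The genes whose profiles over the 5 libraries were nearest to a member were found by the Euclidean distance between centred log2 values, among genes with at least 10 RPM (reads scaled to depth alone) in a library and no predicted-gene name. Nearest to Jun was Matn2 (distance 0.216), with 6.81 and 6.78 RPKM in CD4 Treg, against 0.414 RPKM in CD8 Treg and 0.502 and 0.128 RPKM in CD49lo. Nearest to Fos was the heat shock gene Hspa1a (0.399), with 4.89 and 5.02 RPKM in CD4 Treg, against 0.444 RPKM in CD8 Treg and 0.726 and 0.0513 RPKM in CD49lo. Nearest to Junb were Irgm2 (0.0915) and Tasp1 (0.122), to Jund Kcna3 (0.129), to Batf Mxd4 (0.143) and Gbp7 (0.158), and to Fosl2 Sorl1 (0.186) and Txndc5 (0.188). Nearest to Batf3 were 2 replication-dependent histone genes, Hist1h1a (0.258) and Hist1h3i (0.343), and Birc5 (0.377), which serves cell division. With 5 libraries in 3 groups, many genes share such profiles, and likeness is given as a description.

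Some of the 9 genes are neighbours. Fos and Batf lie on the same strand of chromosome 12 with 209395 bases between them, and the 1 protein-coding gene in that gap, Jdp2, encodes another bZIP repressor of AP-1. Jdp2 had 3.63 and 5.37 RPKM in CD4 Treg, 2.81 RPKM in CD8 Treg and 8.89 and 3.71 RPKM in CD49lo, and did not pass in CD4 Treg against CD49lo (-0.33 ± 0.43, limma adjusted p = 0.645). Batf3 and Atf3 lie 61352 bases apart on chromosome 1.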

How the data were processed

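RNA libraries of sorted mouse spleen cells were measured in 5 samples. The authors deposited 1 table of RPKM values under a name that speaks of counts. Each value was multiplied by gene length and divided by the smallest nonzero such value in its library, taken as 1 read. Of the nonzero values, 100% then fell within 0.02 of whole reads, which were used where reads are given. CASAVA, STAR and the mm10 build are named in the submitters' processing notes, with no version. Because the unit is RPKM, the main test was limma (3.58.1, R 4.3.3) fitted to TMM-scaled log2(RPKM + 0.5), with group as the only term, all 5 libraries, 2 residual degrees of freedom, a prior following mean abundance and Benjamini-Hochberg adjustment. Fold changes on that scale understate changes of low genes. Genes needed 10 reads at median depth in 1 library and 15 reads in all. Levels are deposited RPKM without TMM. Intervals on read ratios are exact. Motifs were counted in RefSeq promoters (GRCm38.p6) with Python 3.11.15.

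The members and lists were chosen with earlier results of these data known. Of each list, the 4 genes with the smallest p in CD4 Treg against CD49lo were open to naming, with the clearest called gene of opposite sign; 1 gene is not reported here. Outside that rule, Crem, Maff, Dbp, Nfil3, Bach2, Cebpa, Cebpb, Cebpd, Irf4, Jdp2, Fosl1 and Batf2 were named after their values were seen. So were Cd209a, Clec9a, Xcr1, Zbtb46 and Tlr3. Replicates were not duplicates, since chi-square per degree of freedom was 5.83 between the CD4 Treg and 12.6 between the CD49lo libraries.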

Additional observations from a re-analysis of the deposited data

How the results depend on the processing

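For CD4 Treg against CD49lo, 8 of the 9 genes passed in limma, and 8 passed under every alternative except no filter (4) and the fits without 1 CD4 Treg or CD49lo library (0 to 4). Genes called numbered 2954, against 685 with no filter, 1961 with a single prior and 0 to 688 without 1 of those libraries; without CD8 Treg 8 of the 9 and 2966 genes passed. Replicate numbers were shared between these groups, and the correlation of deviations between libraries of the same number was -0.0202. That value, from 2 libraries in each group, cannot decide whether the numbers marked pairs. With the replicate block 8 of the 9 genes and 3608 genes passed. That fit leaves 1 residual degree of freedom, and its limma p for Jun was 3.43e-96. Since 4 libraries cannot bear such a value, these counts add no support.

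For CD8 Treg against CD49lo, 1 of the 9 passed, and 0 with a constant of 0.1, with no filter, with a filter at 1 RPKM, in limma-voom, with a single prior and without any 1 CD4 Treg or CD49lo library (0 to 0). Genes called numbered 714 (228 higher, 486 lower), against 452 with no filter (387 higher, 65 lower), 0 with a filter at 1 RPKM (2497 at an unadjusted p under 0.05), 365 with a prior on mean log2 RPKM, 2 with a single prior and 0 to 0 without 1 library. The split was 170 higher and 664 lower without TMM, which moved the median of all genes to -0.16, and 350 and 339 in limma-voom.

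For CD8 Treg against CD4 Treg, 6 of the 9 passed, against 3 with no filter and 0 to 2 without 1 library. Genes called numbered 2242 (1131 higher, 1111 lower), against 1072 with no filter (730 higher, 342 lower), 1155 with a filter at 1 RPKM, 1192 with a single prior and 0 to 241 without 1 library; without TMM the split was 958 and 1374. Directions turned in CD8 Treg against CD49lo for Junb (log2 fold change -0.0604, no TMM) and Jun (-0.0277 to 0.524 without 1 library), and in CD8 Treg against CD4 Treg for Atf3 (0.210 in limma-voom, -1.1535 to 0.437 without 1 library); the cause was not tested. With 1 replicated library left out, 1 residual degree of freedom is left, and a lone library is taken to vary like the other groups. Batf3 and Atf3 rest on at most 28 reads in a library.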
